A study of Rattus norvegicus with 50 samples.

Results

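Gene expression in the lungs of rats that inhaled nickel subsulfide (Ni3S2) at 0.15 mg/m3 for 1 week was compared with that of rats kept at 0 mg/m3 for the same time. The comparison used 10 of the 50 arrays of the series, 5 of exposed and 5 of control rats, and covered the 13438 genes reached by a probe set with exactly 1 gene symbol. All animals were male Fischer 344 rats, about 7 to 8 weeks old when they were received. The exposed rats breathed 0.15 mg/m3 of aerosol, which is 0.11 mg of nickel per m3, for 6 hours a day on 5 days, and the 1-week controls breathed air at the 0 mg/m3 setting on the same schedule. The other groups drawn on here had 5 arrays each. They were 0.60, 0.08 and 0.04 mg/m3 for 1 week, 0.15 mg/m3 for 4 weeks (20 exposure days), and controls kept for 4 weeks. The labels name broncho-alveolar cells of the right caudal lung as the source and distal airway tissue as what the RNA came from. The 5 arrayed animals of each group were those with the best RNA among 8.

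Nickel subsulfide dissolves slowly in the lung and is carcinogenic to rats by inhalation. Inhaled particles of this kind injure the epithelium, draw in phagocytes and start repair, in which airway and alveolar cells divide. Nickel ions also block enzymes that need iron and oxygen, among them the prolyl hydroxylases that mark hypoxia-inducible factors for destruction and the demethylases of histones. Metal ions induce metallothioneins through the metal-responsive factor Mtf1, and oxidants induce protective enzymes through the factor NRF2.

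Values are log2 intensities as deposited, differences are log2 differences (exposed minus control) ± the standard error of the model, and n = 5 arrays per group throughout. A gene was called at a Benjamini-Hochberg adjusted p under 0.05 in limma, and "rose" and "fell" are used of called genes, against the 1-week controls unless others are named. The tissue label was borne out by high levels of lung epithelial markers in both groups. Sftpc, the surfactant protein of alveolar type 2 cells, averaged 13.5 in exposed and 13.4 in control lungs, the club cell secretoglobin Scgb1a1 averaged 13.6 and 13.7, and the alveolar type 1 marker Ager averaged 11.3 and 11.7.

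The 1-week control arrays stood apart from most of the series, together with the 0.04 mg/m3 arrays and part of the 0.08 mg/m3 arrays of the same week, and every comparison with them carries this difference. In a principal component analysis of all arrays, 63.5% of the variance fell on component 1 and 10.5% on component 2. On component 1, the exposed arrays lay at 8.56 ± 6.76 (SD, n = 5) and the 1-week controls at -58.0 ± 12.2, while the 4-week controls lay between 28.5 and 35.3. The 1-week arrays at 0.04 mg/m3 lay further out, from -84.9 to -62.8, and those at 0.08 mg/m3 from -64.7 to 5.46. The exposed minus control difference of 66.5 came with differences of 0.072 in the array median and 0.1 in the interquartile range. Each of these 3 had p = 0.00794 in a two-sided exact permutation test, the smallest that 5 against 5 arrays can give, and 0.00794 after adjustment over the 3. Whether the position of the 1-week controls comes from the animals, from RNA or from array processing was not tested. Most results are therefore given against the 4-week controls as well. Those rats were older at sampling, so exposure and age cannot be told apart in that comparison, and both comparisons use the same 5 exposed arrays.

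Exposed replicate 1 also stood apart. It lay at 10.1 on the second component, against 23.8 to 38.5 for the other 4 exposed arrays, and had the lowest level among exposed arrays of many genes that rose most. For the leading genes of this kind the difference without it is given too.

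**Figure D1:**
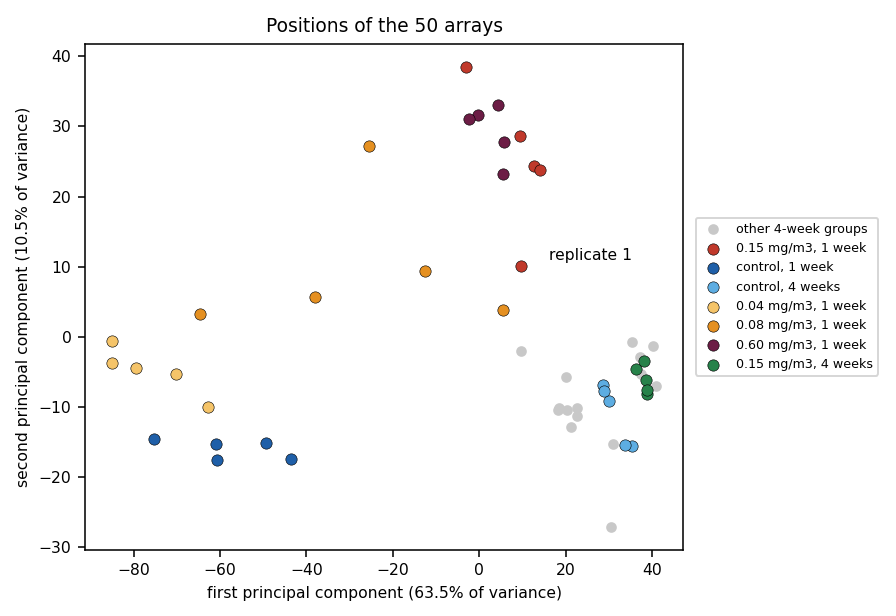
Position of each of the 50 arrays on the first and second principal components of log2 expression (no unit; the share of variance is on each axis). Points are single arrays, coloured by group. The 5 exposed arrays lie near 0 on the first component, far to the right of the 5 1-week controls, and exposed replicate 1 is the lowest of its group on the second.

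Of the 13438 genes, 9063 (67.4%) were called, 4536 (33.8%) higher and 4527 (33.7%) lower. All 5 exposed arrays lay above all 5 controls for 3756 genes (28%) and below them for 3666 (27.3%). So many genes were called that a list's count means little unless it is read against these shares. Against the 4-week controls, 5729 genes (42.6%) were called, 3903 higher (29%) and 1826 lower (13.6%). Only 1634 genes (12.2%) were called the same way against both sets of controls, 1228 higher (9.14%) and 406 lower (3.02%). A further 2681 genes (20%) were called in opposite directions, and 4748 (35.3%) against the 1-week controls only. At least 2-fold against each set, 80 genes rose (0.595%) and 61 fell (0.454%), which is 141 in all (1.05%). With each array's position on an axis of spread within groups as a covariate, 5546 genes were called against the 1-week controls (41.3%), 3274 higher (24.4%) and 2272 lower (16.9%). This axis correlated with component 1 at 0.995. On it the 1-week controls (-66.9 to -34.6) and the exposed arrays (-11.2 to 10.7) did not overlap, so the covariate fit extrapolates between them. At least 1.5-fold, 5469 were called (40.7%).

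**Figure D2:**
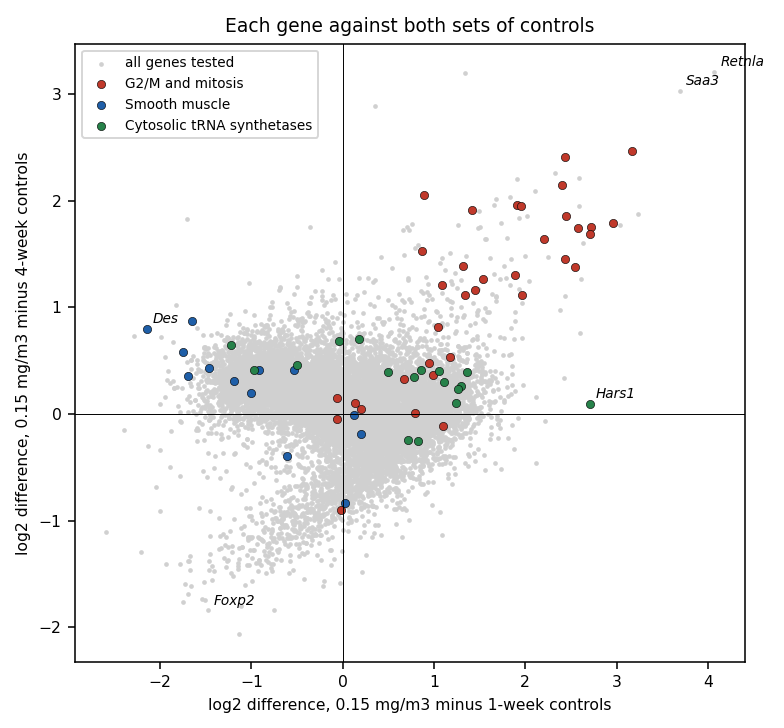
Log2 difference of exposed lungs from the 1-week controls (x axis) and from the 4-week controls (y axis) for each of the 13438 genes, with the members of 3 gene lists in colour. Mitosis genes lie in the upper right, higher against both, smooth muscle genes lie left of 0 on the x axis and mostly above 0 on the y axis, and Hars1 is high on the x axis alone.

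The 15 largest rises were taken among genes whose 5 exposed arrays all lay above the 5 1-week controls. Their products included secreted defence proteins, parts of the cell division machinery, a channel subunit and a tRNA synthetase. Retnla, a small secreted protein of macrophages and epithelium in type 2 immune responses, had 10.36, 13.10, 12.96, 12.85 and 12.89 in exposed replicates 1 to 5, against 8.18 to 8.62 in the 1-week controls and 9.09 to 9.27 in the 4-week controls. All exposed arrays also lay above the 4-week controls, and replicate 1 lay well below the other 4. The rise was 4.07 ± 0.27 (16.8-fold, adjusted p = 2.8e-16), 4.59 without replicate 1 and 3.21 against the 4-week controls. Saa3, an acute phase apolipoprotein made at sites of inflammation, had 5.59, 7.65, 8.23, 7.26 and 7.48 in the exposed arrays, against 3.32 to 3.69 in the 1-week controls and 3.96 to 4.43 in the 4-week controls. It rose by 3.69 ± 0.30 (12.9-fold, adjusted p = 3.8e-14), by 4.10 without replicate 1 and by 3.03 against the 4-week controls. Again no exposed array overlapped a 4-week control, and replicate 1 was the lowest.

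Spp1, which encodes osteopontin, a phosphoprotein of recruited macrophages, had 5.57, 7.46, 7.77, 7.11 and 7.07 in exposed lungs, against 4.09 to 4.56 in the 1-week controls. It rose by 2.59 ± 0.30, by 2.95 without replicate 1, and by 1.95 against the 4-week controls, whose range was 4.58 to 5.24. Gabrp, a chloride channel subunit found in epithelia, averaged 9.57 ± 0.51 (SD) in exposed and 6.94 ± 0.30 in control lungs. C4bpa, an inhibitor of complement activation made in lung epithelium, averaged 9.40 ± 0.19 and 6.79 ± 0.52. Gabrp and C4bpa rose by 2.63 and 2.6, and both stayed higher against the 4-week controls, by 1.60 and 0.76.

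Atp6v0a4, a subunit of the proton pump at the surface of acid-secreting epithelial cells, split the exposed arrays. It had 6.24, 6.91, 6.23 and 6.24 in replicates 2 to 5 and 3.62 in replicate 1, against 3.27 to 3.67 in the 1-week controls and 3.40 to 3.90 in the 4-week controls. Replicate 1 was thus at control level while the other 4 were far above it. The gene rose by 2.33 ± 0.32 (adjusted p = 1.3e-08), and by 2.88 without replicate 1. Its neighbour on chromosome 4 (gene order of GRCr8), Tmem213, a small membrane protein, showed the same split, with 3.70 in replicate 1 and 5.50 to 6.53 in the others, against 3.45 to 3.95 in the controls. Tmem213 rose by 1.90, and by 2.2 against the 4-week controls. This pair was picked out after the values were seen, among neighbouring genes that both changed at least 2-fold against both sets of controls.

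**Figure D3:**
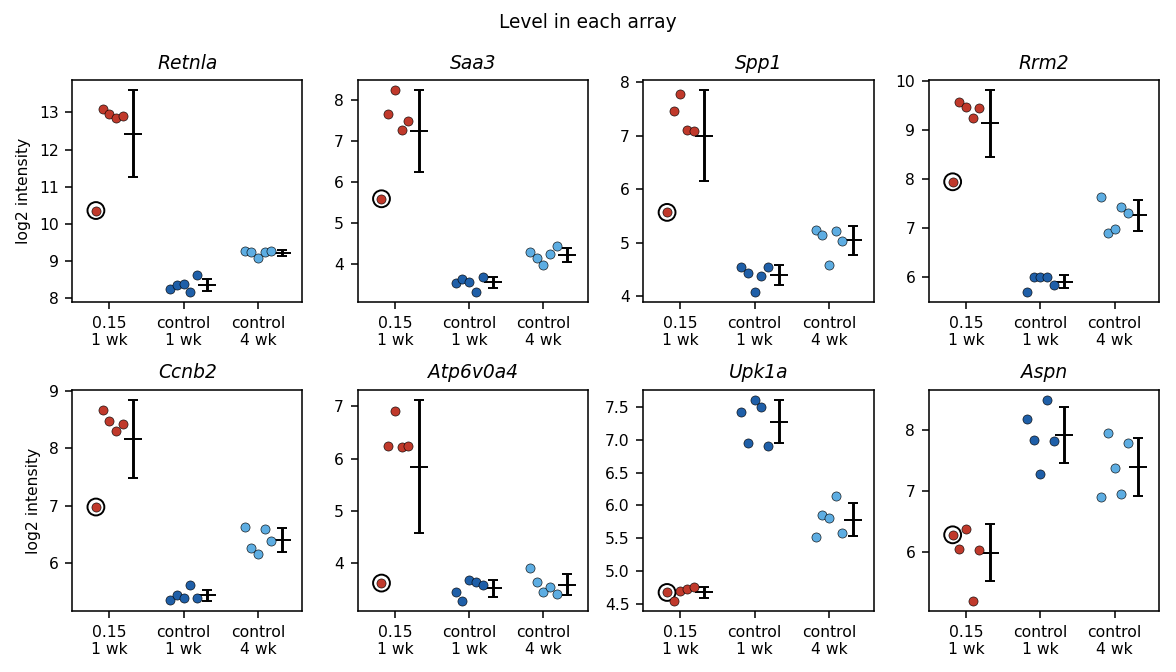
Log2 intensity of 8 genes in each array of the exposed group (left), the 1-week controls (middle) and the 4-week controls (right). Points are arrays, the circled point is exposed replicate 1, and bars give the mean and SD. Upk1a and Aspn are lower in every exposed array than in every 1-week control, and the other 6 genes are higher in 4 or 5 exposed arrays.

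Genes of mitosis rose together. Of 35 measured genes of the G2 phase and mitosis, 30 rose and 0 fell, 26 of them also against the 4-week controls, beside backgrounds of 33.8% and 9.14%. The list's median difference was 1.42 (all genes -0.03), and 1.30 against the 4-week controls (all genes 0.10). Its mean level was 5.75 in exposed replicate 1 and 6.65 to 7.11 in the other 4, against 5.04 to 5.25 in the 1-week controls and 5.40 to 5.55 in the 4-week controls. Every exposed array was thus above every control array of either time, and replicate 1 showed the smallest gap. Without it the same number of members, 30, rose, with a median of 1.70. In bulk tissue, more dividing cells and more RNA per dividing cell cannot be told apart.

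Among single members, Melk, a kinase of proliferating cells, rose by 3.16 ± 0.27 (9.0-fold) with 5.36, 7.46, 7.27, 7.13 and 7.20 in exposed lungs, against 3.57 to 3.83 in the controls. Without replicate 1 the rise was 3.54, and against the 4-week controls it was 2.47. Kif20a, a motor of the dividing cell's midzone, rose by 2.96, and Ccnb2 and Ccna2, cyclins that drive entry into mitosis, by 2.72 and 2.71. Against the 4-week controls these 3 rose less, by 1.79, 1.76 and 1.69. Cdk1, the kinase these cyclins activate, had 7.82, 9.77, 9.57, 9.46 and 9.44 in exposed lungs, against 6.35 to 7.09 in the 1-week and 6.63 to 6.99 in the 4-week controls. It rose by 2.43 ± 0.20, by 2.78 without replicate 1 and by 2.41 against the older controls, so the choice of controls hardly moved it. Cks2, a small partner of Cdk1, rose by 2.40, Pttg1, the securin that restrains separase, by 2.11, and Cdca3, a trigger of mitotic entry, by 1.95, with 2.15, 2.09 and 1.95 against the 4-week controls. Cdkn3, a phosphatase that acts on cyclin-dependent kinases, rose by 3.04, Ube2t, a ubiquitin-conjugating enzyme of DNA crosslink repair, by 2.59, and Hyls1, a protein of centrioles, by 2.61, with 1.77, 2.21 and 1.27 against the 4-week controls. Members not called included Mki67, the proliferation marker, at 5.16 in exposed and 4.96 in control lungs (difference 0.20, adjusted p = 0.49), and Aurkb, a mitotic kinase, at 10.8 and 10.7.

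The promoters of the mitosis genes were searched for TTTGAA, the letters of the cell cycle homology region that late cell cycle promoters are known to carry. Promoters are 300 bases of RefSeq's GRCr8 annotation, 250 before and 50 after each gene's start, searched on both strands, where the match reads TTCAAA on the other strand. Of the mitosis genes, 30 had a promoter and 21 held a match (70%), against 1 of 25 G1/S genes (4%), 12.3% of the 11089 tested genes with a promoter and 18.3% of all 33469 promoters. The promoters of Ccnb2, Cdk1 and Cks2, which rose most among the holders of a match that are named here, are shown with their matches in capitals, each 5′ to 3′ on the gene's strand.
Ccnb2 (chr8:79981609-79981908, minus strand): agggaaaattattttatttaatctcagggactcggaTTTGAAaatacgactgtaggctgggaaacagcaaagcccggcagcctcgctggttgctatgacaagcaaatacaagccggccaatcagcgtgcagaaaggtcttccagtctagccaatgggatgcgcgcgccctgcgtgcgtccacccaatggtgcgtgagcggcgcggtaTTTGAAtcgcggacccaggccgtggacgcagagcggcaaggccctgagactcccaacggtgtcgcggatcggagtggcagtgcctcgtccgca
Cdk1 (chr20:19265043-19265342, plus strand): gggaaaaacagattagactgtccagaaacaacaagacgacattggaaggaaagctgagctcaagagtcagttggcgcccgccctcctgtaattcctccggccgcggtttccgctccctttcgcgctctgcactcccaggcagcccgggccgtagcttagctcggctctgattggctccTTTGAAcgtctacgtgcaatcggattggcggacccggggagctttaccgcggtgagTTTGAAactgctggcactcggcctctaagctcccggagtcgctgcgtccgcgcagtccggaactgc
Cks2 (chr17:13727470-13727769, minus strand): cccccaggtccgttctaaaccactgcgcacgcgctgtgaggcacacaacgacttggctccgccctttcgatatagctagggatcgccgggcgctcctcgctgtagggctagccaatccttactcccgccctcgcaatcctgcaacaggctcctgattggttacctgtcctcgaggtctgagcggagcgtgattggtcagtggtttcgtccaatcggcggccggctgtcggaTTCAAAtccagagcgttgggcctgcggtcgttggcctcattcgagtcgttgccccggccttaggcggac
Both Ccnb2 and Cdk1 held 2 matches, the one nearest the start beginning at position -43 in Ccnb2 and at -16 in Cdk1, and Cks2 held 1 at -19. Melk, Kif20a, Ccnb1 and Cdca3 held none in this window. The counts cover measured members with a promoter, called or not, and among mitosis genes higher against both controls 15 of 22 held a match (68.2%). The lists were chosen by known function, so these shares describe the lists and say nothing about the exposure. A match is a description of these letters and not evidence of a bound factor.

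Genes that copy DNA rose too. Of 30 measured genes of the G1/S transition and DNA replication, 26 rose (86.7%) and 0 fell, with a median of 0.82. Against both sets of controls 23 rose, and the shares of all genes that rose were 33.8% and 9.14%. Their mean level was 6.4 in exposed replicate 1 and 6.95 to 7.20 in the others, against 5.87 to 6.06 in the controls. Rrm2, the small subunit of the reductase that makes deoxynucleotides, had 7.94, 9.57, 9.47, 9.25 and 9.44 in exposed lungs, against 5.69 to 6.00 in the 1-week and 6.90 to 7.64 in the 4-week controls. It rose by 3.23 ± 0.22 (9.38-fold), by 3.53 without replicate 1, and by 1.88 against the 4-week controls. Mcm6, part of the replicative helicase, rose by 2.04, the large reductase subunit Rrm1 by 1.85, and the repressor E2f8 by 1.62, with 1.25, 0.45 and 1.46 against the 4-week controls.

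Of 19 DNA repair genes 11 rose (57.9%) and 6 fell (31.6%), beside 33.8% and 33.7% of all genes. Against the 4-week controls 10 were higher and 2 lower, beside 29% and 13.6%, and 5 rose against both, beside 9.14%. Rad54l, a motor protein of homologous recombination, rose by 1.17 and by 1.51 against the 4-week controls. Xrcc5, the Ku80 end-binding protein, rose by 1.48 against the 1-week controls, and its difference from the 4-week controls was -0.33. Of 16 p53 targets, 8 rose (50%) and 7 fell (43.75%), beside the same shares of all genes. Against the 4-week controls 0 were higher and 2 lower, and 0 were called the same way against both. Gdf15, a stress cytokine, fell by 2.39 ± 0.22, to 5.90 to 6.54 in exposed lungs against 8.20 to 8.94 in the 1-week controls, and the 4-week controls lay at 6.13 to 6.53. The exposed arrays therefore did not stand apart from the 4-week controls for Gdf15. Phlda3, an inhibitor of Akt, likewise fell by 1.67 against the 1-week controls and differed by 0.29 from the 4-week controls.

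Among 19 enzymes of histone and DNA methylation, 11 rose (57.9%) and 3 fell (15.8%), beside 33.8% and 33.7% of all genes. Higher against both sets of controls were 6, beside 9.14% of all genes. Uhrf1, which brings the maintenance methyltransferase to copied DNA, rose by 1.5, and Ezh2, the methyltransferase of histone H3 lysine 27, by 1.44. They also rose against the 4-week controls, by 1.75 and 0.40. Ehmt2, a histone H3 lysine 9 methyltransferase, fell by 1.16, and its difference from the 4-week controls was 0.48.

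Secreted defence genes rose, as did single genes of recruited phagocytes. Of 15 acute phase and secreted defence genes 8 rose (53.3%) and 1 fell (6.67%), beside 33.8% and 33.7% of all genes. The same number, 8, rose against both controls, beside 9.14% of all genes. Beside Retnla and Saa3, Lcn2, a siderophore-binding lipocalin, averaged 4.84 ± 0.38 (SD) in exposed and 3.59 ± 0.35 in control lungs and rose by 1.25 ± 0.25, and complement component C3 rose by 1.15 ± 0.08 and by 0.37 against the 4-week controls. Among 15 complement genes 7 rose (46.7%) and 5 fell (33.3%). Higher against the 4-week controls were 10 and lower 1, beside 29% and 13.6% of all genes. Cfi, the protease that cleaves C3b and C4b, rose by 2.38, and C6, part of the membrane attack complex, by 1.23, and both also rose against the 4-week controls, by 0.97 and 1.33.

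Of 15 genes of monocytes and recruited macrophages, 10 rose (66.7%) and 0 fell, but 3 rose against both controls. The shares of all genes that rose were 33.8% and 9.14%. The list's median was 0.66 against the 1-week and 0.12 against the 4-week controls. Gpnmb, a glycoprotein of lipid-laden macrophages, averaged 11.0 in exposed and 9.29 in control lungs and rose by 1.67. Arg1, the arginase of alternatively activated macrophages, rose by 1.39. Neither differed from the 4-week controls beyond the threshold, with 0.12 and 0.01, whereas Spp1 and Ms4a7, a membrane protein of monocyte-derived macrophages, did, Ms4a7 by 0.64 after a rise of 1.27. Of 10 alveolar macrophage genes 7 rose (70%, beside 33.8% of all genes). Only 1 of them rose against both, namely Chi3l1, a chitinase-like lectin, by 0.91 and 1.28. The count of 7 was 4 without exposed replicate 1, and also without control replicate 1, 3 or 4, and 4 of the 10 were lower against the 4-week controls. Pparg, a nuclear receptor that alveolar macrophages need, rose by 1.13 and differed by -0.04 from the 4-week controls.

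Few neutrophil genes changed in a way that held against both sets of controls, and their attractants differed by list. Of 9 neutrophil genes 5 rose (55.6%, beside 33.8% of all genes). The decoy interleukin 1 receptor Il1r2 was the 1 that rose against both (9.14% of all genes), by 1.72 and 1.27. The chemokine receptor Cxcr1 rose by 1.81, with 0.17 against the 4-week controls. Of 5 neutrophil-attracting CXC chemokines 3 rose (60%), and 2 rose against both, beside 33.8% and 9.14% of all genes. Cxcl2 rose by 1.19 and Cxcl1 by 0.86, and these rose against the 4-week controls by 0.99 and 1.15. Of 10 monocyte-attracting CC chemokines 1 rose against both sets of controls. Against the 1-week controls 5 rose (50%) and 1 fell (10%), beside 33.8% and 33.7% of all genes. The count of rises was 2 without control replicate 1, and 3 without control replicate 2 or 4 or exposed replicate 3, 4 or 5, and that of falls was 2 without control replicate 4 or 5. Ccl7 averaged 7.02 in exposed and 5.96 in control lungs and rose by 1.06, and by 1.42 against the 4-week controls. Ccl6 rose by 0.99, with -0.28 against the 4-week controls. Of 22 interferon-induced genes 8 rose (36.4%) and 5 fell (22.7%), beside 33.8% and 33.7% of all genes. Against the 4-week controls 8 were higher and 2 lower, and 0 rose against both. Ifit3 and Rsad2, antiviral effectors, rose by 1.84 and 1.72, and differed from the 4-week controls by 0.18 and 0.16.

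Lists of lymphoid markers moved in different ways. Of 16 T cell genes 6 fell (37.5%, beside 33.7% of all genes) and 0 rose, and against the 4-week controls 7 were higher and 0 lower. Lck and Zap70, kinases of T cell receptor signalling, fell by 1.30 and 1.28, with 0.47 and 0.40 against the 4-week controls. Of 7 B cell genes 5 fell (71.4%), and 3 without control replicate 3. Blk and Cd79b, genes of B cell receptor signalling, fell by 1.60 and 1.12, with 0.47 and 0.68 against the 4-week controls. The control arrays themselves spread widely, with mean B cell levels from 5.68 to 7.27 against 5.41 to 5.95 in exposed lungs. Of 10 natural killer and cytotoxic cell genes 7 rose (70%) and 3 fell (30%), beside 33.8% and 33.7% of all genes. The list medians were 0.53 against the 1-week and -0.11 against the 4-week controls, and 0 rose and 1 fell against both. Of 11 genes of MHC class II and costimulation 5 fell (45.5%) and 1 rose (9.09%). Ciita, the master regulator of these genes, fell by 1.5, and RT1-DMb, a peptide-loading chain, by 1.21, with 0.39 and 0.45 against the 4-week controls.

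Mucus genes of the airway epithelium were among those that rose. Of 10 goblet cell and mucus genes 5 rose (50%) and 1 fell (10%), beside 33.8% and 33.7% of all genes. The count of falls was 2 without exposed replicate 3 or control replicate 5. Against the 4-week controls 9 were higher and 0 lower, beside 29% and 13.6%. The same number, 5, rose against both, beside 9.14%. Muc5b, a gel-forming mucin, averaged 12.2 ± 0.55 (SD) in exposed and 10.7 ± 0.42 in control lungs, a rise of 1.5 ± 0.29, and of 1.90 against the 4-week controls. Slc26a4, the anion exchanger pendrin, rose by 1.85 ± 0.24, Clca1, a secreted regulator of mucus, by 1.45, and Agr2, a disulfide isomerase that mucin folding needs, by 1.30. All 3 rose against the 4-week controls too, by 1.45, 0.85 and 0.62. The mean level of the list was 7.34 in exposed replicate 1 and 7.74 to 7.84 in the others, against 7.01 to 7.30 in the 1-week controls.

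The other epithelial lists held rises and falls. Of 8 club cell genes 1 rose and 3 fell, and of 13 alveolar type 2 genes 4 rose and 5 fell. Of 9 alveolar type 1 genes 4 rose and 2 fell (1 without control replicate 2 or 5). The list medians were -0.03, 0.08 and 0.14. Against the 4-week controls 0 club cell genes were higher and 3 lower, with a median of -0.24, beside 29% and 13.6% of all genes. There 0 type 2 genes were higher and 3 lower, and 2 type 1 genes were higher and 1 lower. Of 15 keratins and genes of injured epithelium 4 rose and 6 fell with a median of -0.10, but 10 were higher and 1 lower against the 4-week controls with a median of 0.53, and 3 rose against both.

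**Figure D4:**
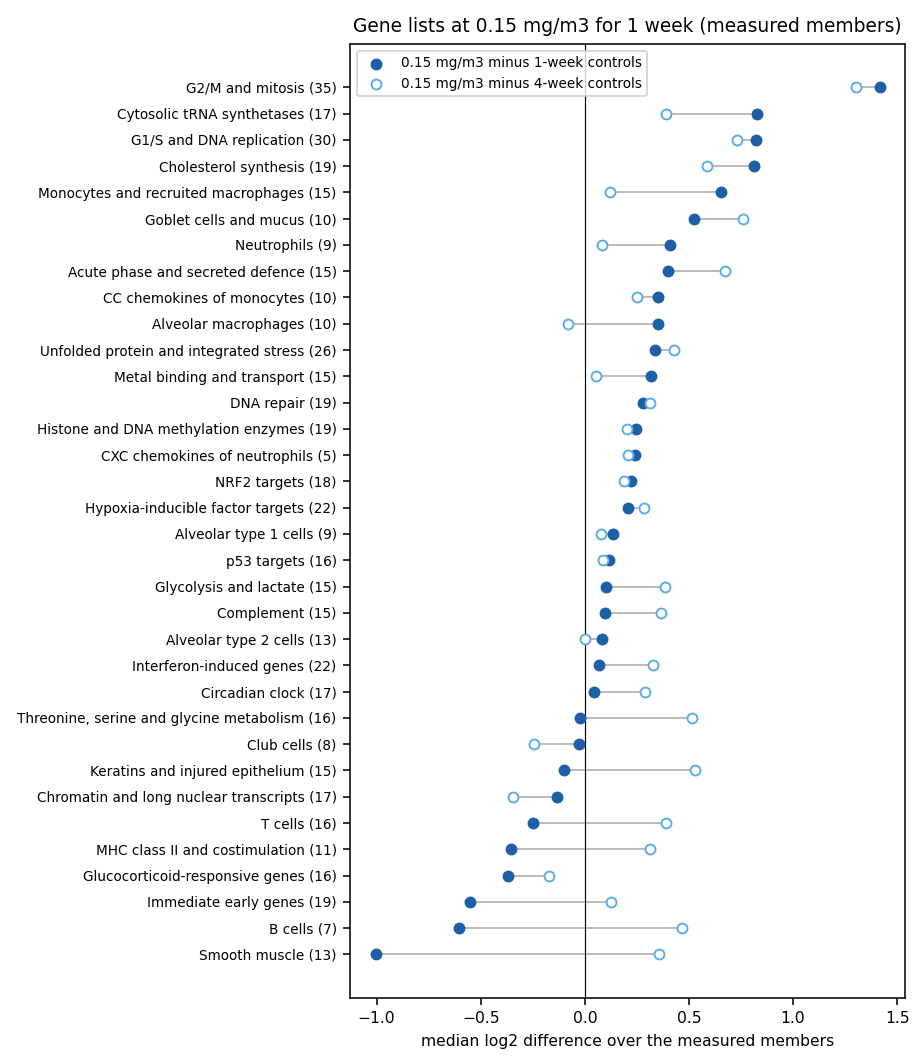
Median log2 difference of exposed lungs from the 1-week controls (filled points) and from the 4-week controls (open points) for the gene lists described, with the number of measured members in brackets. Mitosis, DNA replication, cholesterol synthesis and mucus lists lie right of 0 in both, and smooth muscle, B cell, T cell and MHC class II lists lie left of 0 for the 1-week controls and right of 0 for the 4-week controls.

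Among biosynthetic lists, cholesterol synthesis and tRNA loading held many genes that rose. Of 19 cholesterol synthesis genes 12 rose (63.2%) and 4 fell (21.1%), beside 33.8% and 33.7% of all genes, and the median was 0.81. Against the 4-week controls 16 were higher and 0 lower, beside 29% and 13.6%, and 9 rose against both, beside 9.14%. Sqle, the squalene epoxidase, rose by 1.65 ± 0.15, and Sc5d, Cyp51 and Msmo1, which process sterol rings and side groups later in the pathway, by 1.55, 1.54 and 1.51. Sqle, Cyp51 and Msmo1 rose against the 4-week controls too, by 0.59, 0.89 and 0.47, and Sc5d differed by 0.21.

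Of 26 genes of the unfolded protein and integrated stress responses 16 rose (61.5%) and 7 fell (26.9%), beside 33.8% and 33.7% of all genes. Against the 4-week controls 19 were higher and 1 lower, beside 29% and 13.6%, and 11 rose against both, beside 9.14%. Psat1, a serine synthesis enzyme that Atf4 induces, rose by 1.85 ± 0.13, and Asns, the asparagine synthetase, by 1.35. Dnajc3, a co-chaperone of the endoplasmic reticulum, rose by 1.52, and Ddit3, the factor CHOP, by 1.12. Against the 4-week controls these 4 rose by 0.81, 0.77, 0.29 and 0.36.

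Of 17 cytosolic tRNA synthetases, which load amino acids onto tRNAs, 13 rose (76.5%) and 3 fell (17.6%), with a median of 0.83. The shares of all genes were 33.8% and 33.7%. Against the 4-week controls 12 were higher and 0 lower, beside 29% and 13.6%, and 8 rose against both, beside 9.14%. Hars1, the histidyl enzyme, had 7.53 to 7.71 in exposed lungs, against 4.78 to 5.01 in the 1-week controls, a rise of 2.71 ± 0.28. The 4-week controls lay at 7.26 to 7.85, and the difference from them was 0.10 (adjusted p = 0.81), so Hars1 set the exposed arrays apart from the 1-week controls alone. Tars1 and Rars1, for threonine and arginine, rose by 1.36 and 1.29 and by 0.40 and 0.27 against the 4-week controls, and Farsb, for phenylalanine, rose by 1.26.

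Of 16 threonine, serine and glycine genes 6 rose and 6 fell (37.5% each), beside 33.8% and 33.7% of all genes. Against the 4-week controls 10 were higher and 1 lower with a median of 0.52, beside 29% and 13.6% of all genes. With the axis covariate 7 were higher and 0 lower. Tdh, which breaks down threonine in mitochondria of rodents, averaged 5.46 ± 0.35 (SD) in exposed and 3.53 ± 0.09 in control lungs and rose by 1.93 ± 0.21, and by 1.84 against the 4-week controls.

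Lists of responses known for nickel held both rises and falls. Of 22 hypoxia-inducible factor targets 9 rose (40.9%) and 3 fell (13.6%), beside 33.8% and 33.7% of all genes. Against the 4-week controls 12 were higher and 3 lower, beside 29% and 13.6% of all genes, and 5 rose and 1 fell against both. P4ha1, a collagen prolyl hydroxylase, rose by 1.07 ± 0.11 and by 0.65 against the 4-week controls, and Ankrd37, an ankyrin repeat protein, by 0.93 ± 0.11 and by 0.86. Mxi1, an antagonist of Myc, and Kdm3a, a histone demethylase, rose by 1.04 and 0.93, with -0.02 and -0.30 against the 4-week controls. Of 15 glycolysis and lactate genes 5 rose and 5 fell (33.3% each), near the shares of all genes. Against the 4-week controls 12 were higher and 0 lower with a median of 0.39, and 6 were higher and 1 lower with the axis covariate. Pfkp, a phosphofructokinase, and Slc16a1, a lactate carrier, rose by 1.14 and 1.06, and Ldha, lactate dehydrogenase, by 1.05. Slc16a1 and Ldha rose against the 4-week controls too, by 0.48 and 0.60.

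Of 15 metal binding and transport genes 9 rose (60%) and 3 fell (20%), beside 33.8% and 33.7% of all genes, and 4 rose and 1 fell against both. Mt2A, a metallothionein that binds zinc, copper and cadmium, averaged 8.74 ± 0.41 (SD) in exposed and 7.39 ± 0.19 in control lungs. It rose by 1.35 ± 0.17 (2.55-fold) and by 1.48 against the 4-week controls. Mt1, the other metallothionein, was near the low end of the array at 3.73 and 3.41. The zinc importer Slc39a4 fell by 1.18, with -0.36 against the 4-week controls, and Slc39a8, an importer of zinc and manganese, rose by 1.18, with -0.46. Mt3, a metallothionein of brain, fell by 0.84.

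Promoters were searched for TGCACNC and TGCGCNC, forms of the metal response element, and for ACGTG, the core that hypoxia-inducible factors bind, on both strands. Of 12 metal genes with a promoter 7 held a metal match (58.3%), against 35.1% of tested genes and 24.2% of all promoters. Of 19 hypoxia targets 13 held ACGTG (68.4%), against 24.2% of tested genes and 19.3% of all promoters. Both counts cover measured members with a promoter, called or not. The lists were chosen by known function, so these shares describe the lists and say nothing about the exposure. A match is not evidence of a bound factor. The promoters of Mt2A, with 4 metal matches, and of Ankrd37, with 4 hypoxia matches, of which 2 overlap as one CACGTG, are shown with matches in capitals.
Mt2A (chr19:10838659-10838958, minus strand): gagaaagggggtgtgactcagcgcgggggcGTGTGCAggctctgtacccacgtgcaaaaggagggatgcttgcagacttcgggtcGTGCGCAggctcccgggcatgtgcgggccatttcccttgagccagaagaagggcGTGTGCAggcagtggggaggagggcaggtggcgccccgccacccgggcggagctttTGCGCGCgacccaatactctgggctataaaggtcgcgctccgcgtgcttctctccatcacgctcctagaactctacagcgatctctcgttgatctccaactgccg
Ankrd37 (chr16:53001257-53001556, plus strand): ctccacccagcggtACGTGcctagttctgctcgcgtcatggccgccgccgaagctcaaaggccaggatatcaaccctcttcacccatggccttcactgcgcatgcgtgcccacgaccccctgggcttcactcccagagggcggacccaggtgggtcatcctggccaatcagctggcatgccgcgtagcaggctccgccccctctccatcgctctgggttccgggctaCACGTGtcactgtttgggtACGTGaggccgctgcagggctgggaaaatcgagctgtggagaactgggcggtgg
In both, the matches began among the 250 bases before the start, at positions from -220 to -55 in Mt2A and from -236 to -4 in Ankrd37. The last match in Ankrd37 ran past the start.

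Of 18 NRF2 targets 8 rose (44.4%) and 5 fell (27.8%), beside 33.8% and 33.7% of all genes, and 5 rose against both sets of controls. In the comparison with the 4-week controls 8 were higher and 1 lower, and with the axis covariate 9 were higher and 1 lower. Gclc, the catalytic subunit of the enzyme that starts glutathione synthesis, rose by 0.96, while Osgin1, an oxidant-induced growth inhibitor, and Tkt, a transketolase, fell by 0.96 each and the glutathione transferase Gstp1 by 0.93. Against the 4-week controls these differed by -0.06, 0.14, 0.26 and 0.07.

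The largest falls held less well than the largest rises when the controls were changed. Of all genes, too, more were called higher (29%) than lower (13.6%) against the 4-week controls. Of the 15 largest rises with no overlap of exposed and control arrays, 14 were called higher against the 4-week controls as well, the exception being Hars1. Of the 15 largest falls, 5 were called lower against them, and 3 kept their sign without a call. The other 7 had a difference of the opposite sign, of which only Stra6, Des and Ptprcap were called higher. Upk1a, a membrane protein of urothelium and some epithelia, fell most, by 2.6 ± 0.21, with 4.54 to 4.76 in exposed lungs, 6.91 to 7.61 in the 1-week and 5.52 to 6.15 in the 4-week controls. It was lower than every control of either time. Zfp654, a zinc finger protein, fell by 2.2 and by 1.29, and Aspn, a small leucine-rich proteoglycan, by 1.94 and 1.41. Slc27a3, an acyl-CoA synthetase, and Gnmt, the glycine methyltransferase, fell by 2.13 and 2.01, and their differences of -0.29 and -0.33 from the 4-week controls were not called. Slc27a3 had 2 probe sets, and the other differed by only -0.006 from the 1-week controls.

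The 7 with opposite signs were Stra6, the retinol carrier receptor, which fell by 2.29, the muscle filament gene Des, which fell by 2.15, Sbspon, which fell by 2.0, the lymphocyte phosphatase partner Ptprcap, which fell by 1.99, Dact3 and Fbxl22, which each fell by 1.94, and the phosphatase Dusp2, which fell by 1.92. For Stra6 the values were 4.29 to 4.76 in exposed lungs, 5.64 to 7.74 in the 1-week controls and 3.53 to 4.08 in the 4-week controls. The exposed arrays thus lay between the control sets. Of the 3 probe sets of Dact3 only 1 was called against the 1-week controls, and the smallest difference among them was -0.09. Of 13 smooth muscle genes 10 fell (76.9%, beside 33.7% of all genes) and 0 rose, but against the 4-week controls 6 were higher and 1 was lower. Des and Cnn1, a calponin, fell by 2.15 and 1.75, with 0.80 and 0.58 against the 4-week controls. The list's mean level was 8.21 to 8.76 in exposed lungs, 9.03 to 9.63 in the 1-week and 8.08 to 8.31 in the 4-week controls. Heart muscle markers, from the cardiac muscle of rat pulmonary veins, spread over 6.24 to 7.41 in exposed and 4.67 to 7.59 in control lungs, and the part that unequal sampling of muscle or lymphoid tissue plays in these results was not tested.

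Several glucocorticoid-responsive and immediate early genes fell against both sets of controls. Of 16 glucocorticoid-responsive genes 9 fell and 4 rose, and 7 fell and 3 rose against both, beside backgrounds of 3.02% and 9.14%. Cebpd, a transcription factor of the acute response, had 7.66 to 7.85 in exposed lungs, 9.60 to 9.90 in the 1-week and 8.48 to 8.83 in the 4-week controls. It fell by 2.0 ± 0.15, and by 0.91 against the older controls, with no overlap in either case. Of the 3 probe sets of Cebpd 2 were called lower against the 1-week controls, and the other differed by -0.02. Per1, a clock gene that glucocorticoids induce, fell by 2.04 and 0.68. Angptl4, an inhibitor of lipoprotein lipase, fell by 1.33 and differed by 0.04 from the 4-week controls. Of 19 immediate early genes 12 fell (63.2%) and 1 rose (5.26%), beside 33.7% and 33.8% of all genes. The count of rises was 2 without exposed replicate 4 or control replicate 3 or 5. Against the 4-week controls 5 were lower and 6 higher, and 4 fell and 1 rose against both. Zfp36, which destabilises cytokine mRNAs, and Klf2, a factor of quiescent endothelium, fell by 1.53 and 1.49, and by 0.54 and 0.59 against the 4-week controls. Of 17 clock genes 7 rose (41.2%) and 6 fell (35.3%), beside 33.8% and 33.7% of all genes. Bhlhe40, a repressor of clock genes that hypoxia also induces, rose by 1.66 and 1.32.

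The 10 genes with the largest falls that held against both sets of controls were Arhgap5, a GTPase-activating protein, Zbtb41, Zfp386, Zfp945l1 and Zfp347, which are named as zinc finger proteins, Pof1b, a junction protein of epithelia, Omd, osteomodulin, Foxp2, a forkhead factor of airway epithelium, Rb1cc1, a scaffold that starts autophagy, and Lrif1, a nuclear receptor interacting protein. Of the 2 probe sets of Zfp945l1 only 1 was called against the 1-week controls, and the other differed by 0.005. Arhgap5 had 7.47, 7.35, 7.74, 6.24 and 6.85 in exposed lungs, 8.43 to 9.22 in the 1-week and 8.31 to 9.45 in the 4-week controls. It fell by 1.75 ± 0.27 and by 1.76. Foxp2 had 5.47, 5.84, 5.46, 4.52 and 5.18 in exposed lungs, 6.51 to 7.02 in the 1-week and 6.54 to 7.67 in the 4-week controls, and it fell by 1.47 and 1.84. For both, replicate 4 was the lowest exposed array, and every exposed array lay below every control.

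Replicate 4 also had the lowest exposed position on the first component, -3.01. Of 17 chromatin genes and long nuclear transcripts, a list that holds many genes with long transcripts, 8 fell and 2 rose, and 6 fell against both, beside a background of 3.02%. Atrx, a chromatin remodeller, averaged 4.22 ± 0.55 (SD) in exposed and 5.34 ± 0.21 in control lungs and fell by 1.12, and it fell by 1.80 against the 4-week controls. Zfx, an X-linked zinc finger factor, fell by 0.66 and 1.16. The part of RNA quality in these falls was not tested, since no measure of RNA quality per array was used here.

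Neighbouring genes fell together at 2 places in the GRCr8 gene order. On chromosome 17 lie Ogn, Omd and Aspn, 3 small leucine-rich proteoglycans of the extracellular matrix, which fell by 1.14, 1.72 and 1.94, and by 1.43, 1.60 and 1.41 against the 4-week controls. On chromosome 6, Togaram1, a protein of cilia, and Prpf39, a splicing factor, fell by 1.09 and 1.27, and by 1.13 and 1.43. These neighbours were chosen for their change at least 2-fold in both comparisons, so their common direction is a description.

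Against the same 1-week controls, which these comparisons share, 8742 genes were called at 0.60 mg/m3 (65.1%; 32.8% higher and 32.3% lower) and 6537 at 0.08 mg/m3 (48.6%; 25.1% higher and 23.5% lower). Between 0.60 and 0.15 mg/m3 themselves, 2 genes were called (0.0149%), 1 higher (0.00744%) and 1 lower (0.00744%). At an unadjusted p under 0.05 there were 867 genes (6.45%), and the median SE of a difference was 0.106. Traip, a ubiquitin ligase of DNA replication stress, was 4.06 to 4.38 at 0.60 mg/m3 and 3.23 to 3.99 at 0.15 mg/m3, a difference of 0.60 ± 0.10 (adjusted p = 0.0046). Cyp2a3, a cytochrome P450 of nasal and lung tissue, was 10.03 to 11.23 at 0.60 mg/m3 and 11.18 to 11.94 at 0.15 mg/m3, a difference of -0.95 ± 0.18 (adjusted p = 0.030). Without replicate 1 at 0.15 mg/m3 limma called 0 genes, and without replicate 4 at 0.60 mg/m3 it called 7. Retnla differed by 0.60 ± 0.27, Saa3 by 0.84 ± 0.30 and Atp6v0a4 by 1.00 ± 0.32, all 3 not called, which does not show that the concentrations act alike. The 0.60 mg/m3 arrays lay between -2.51 and 5.59 on the first component, close to the exposed arrays at 0.15 mg/m3.

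Between 0.15 and 0.08 mg/m3, 6284 genes were called (46.8%), 3110 higher (23.1%) and 3174 lower (23.6%). The 0.08 mg/m3 arrays spread from -64.7 to 5.46 on component 1, and the count was 1525 in a fit of these 10 arrays alone and 4114 without replicate 1 at 0.08 mg/m3. The largest rises were in Retnla by 2.69, Saa3 by 2.32, Spp1 by 2.07, Atp6v0a4 by 2.04 and Tmem213 by 1.90. Tmem213 and Atp6v0a4 were at control level at 0.08 mg/m3, with 3.51 to 3.97 and 3.45 to 4.01. Retnla and Saa3 were already higher than the 1-week controls at 0.08 mg/m3, by 1.39 and 1.37, and Spp1 differed by 0.52, not called. The largest falls were in Gdf15 by 1.65, Nppa, the atrial natriuretic peptide, by 1.48, Agt, angiotensinogen, by 1.36, Ckm, muscle creatine kinase, by 1.36 and Pex6, a peroxisome import factor, by 1.28. Nppa, a marker of heart muscle, ranged from 4.67 to 6.83 at 0.15 mg/m3, from 5.52 to 8.87 at 0.08 mg/m3 and from 3.78 to 7.25 in the 1-week controls, so its arrays overlapped widely.

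**Figure D5:**
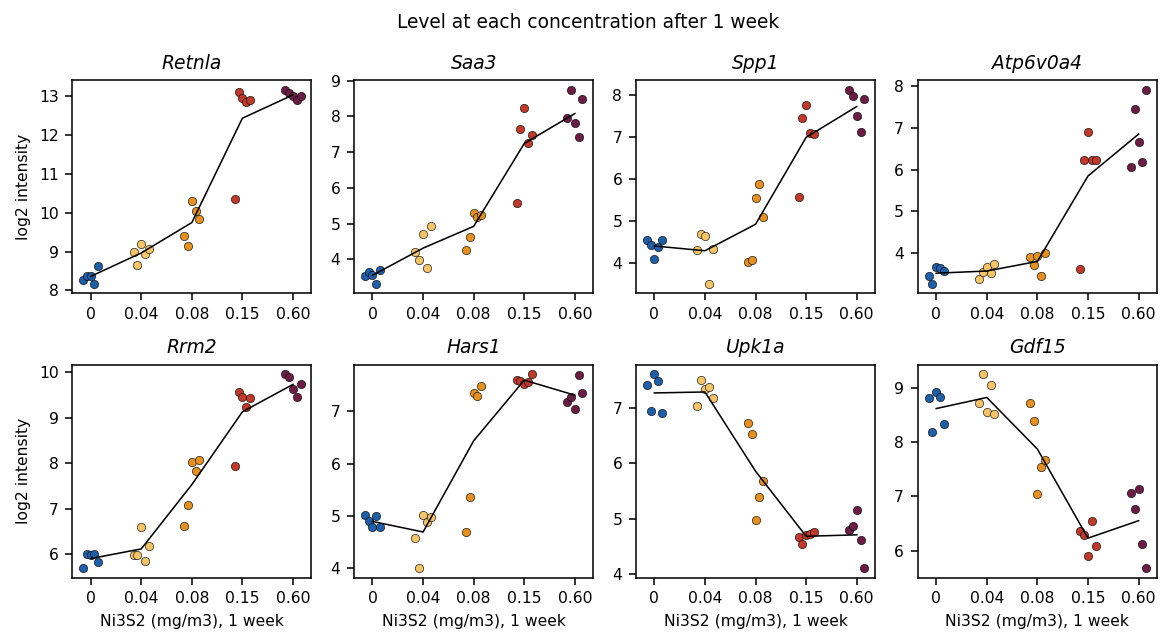
Log2 intensity of 8 genes at each concentration after 1 week, in mg/m3 on an axis with even steps. Points are arrays, coloured by concentration, and the line joins the 5 group means. Retnla, Saa3, Spp1, Atp6v0a4 and Rrm2 climb between 0.08 and 0.15 mg/m3 and were not called between 0.15 and 0.60 mg/m3. Of these, Retnla, Saa3 and Rrm2 were already called higher than the 1-week controls at 0.08 mg/m3, and Spp1 and Atp6v0a4 were not. Hars1 has 3 arrays at 0.08 mg/m3 near the level of 0.15 mg/m3.

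After 4 weeks at the same concentration far fewer genes differed from their own controls. At 0.15 mg/m3 for 4 weeks 470 genes were called (3.5%), 258 higher (1.92%) and 212 lower (1.58%), in arrays that share none with the 1-week comparison. Of the 258, 175 (67.8%) also rose at 1 week, beside 33.8% of all genes, and 32 fell. They were 3.86% of the 4536 genes that rose at 1 week. Of the 212, 111 (52.4%) also fell at 1 week, beside 33.7% of all genes, and 47 rose, and the 111 were 2.45% of the genes that fell at 1 week.

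The change itself differed between times for 7629 genes (56.8%), 3678 with a higher (27.4%) and 3951 with a lower difference (29.4%) at 4 weeks. Among rises, that of Rrm2 was 0.99 at 4 weeks and smaller than at 1 week by 2.24 ± 0.30, and that of Kif20a was 0.86 and smaller by 2.10. Rrm2 averaged 8.24 in exposed lungs at 4 weeks and 9.13 at 1 week, against 7.25 and 5.90 in their controls, and Kif20a 6.29 and 7.22, against 5.43 and 4.26. In both genes the controls differed between times by more than the exposed lungs did. Of the 35 mitosis genes 26 rose at 4 weeks, and for 22 the difference was lower at 4 weeks than at 1 week and for 2 higher. Retnla rose by 2.81 at 4 weeks, 1.26 less than at 1 week (adjusted p = 0.0040). Saa3 and Spp1 rose by 3.27 and 2.11 at 4 weeks, and their differences between times of -0.42 ± 0.43 and -0.48 ± 0.43 were not called. Beside a background of 1.92%, 8 of the 15 acute phase genes and 11 of the 19 cholesterol synthesis genes rose at 4 weeks, and Tdh rose by 3.57.

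For Hars1 and Ptges, too, the controls differed between times by more than the exposed lungs. Hars1 was 2.88 lower in its change at 4 weeks, where exposed lungs averaged 7.33 and controls 7.50. Ptges, the inducible prostaglandin E synthase, rose by 3.05 at 4 weeks and differed by 0.36 at 1 week (adjusted p = 0.18), where exposed lungs averaged 7.19 and controls 6.83. Without exposed replicate 1 the difference at 1 week was 0.58 (adjusted p = 0.025) and called. Its level in exposed lungs averaged 7.35 at 4 weeks and 7.19 at 1 week, while the controls averaged 4.30 at 4 weeks and 6.83 at 1 week. The age of the controls and the distance between the 2 sets of control arrays cannot be told apart here. Stra6, Zfp654, Ccl19, a lymphocyte chemokine, and Aspn had changes that were higher at 4 weeks by 2.59, 2.5, 2.44 and 2.26. Gzma, a granzyme of cytotoxic lymphocytes, and Ap2b1, a clathrin adaptor, had changes that were lower by 2.22 and 2.16.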

How the data were processed

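Total RNA of 50 lung samples was labelled by a 3' in vitro transcription method from 50 to 150 ng and hybridised to Affymetrix HT rat arrays, 5 per group. The authors deposited log2 intensities, made with RMA in Partek per the submitters' processing notes. For software versions, scan batches and the set of arrays normalised together, no source used here gives a record. Values of its 31042 probe sets ran from 2.22 to 13.8. By the platform annotation, 19063 carried 1 gene symbol, 572 several and 11407 none, and the brightest probe set stood for each of the 3985 genes with more than 1. Depth is that of arrays, so their number limits the precision.

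One model with a mean for each of 10 groups was fitted to the deposited log2 values of all 50 arrays with limma 3.58.1 (R 4.3.3) and eBayes, two-sided, with Benjamini-Hochberg adjustment over the 13438 genes of a contrast. The labels do not say that same-numbered exposed and control animals are related. Correlations of their deviations ran from -0.255 to 0.181, over 0.1 in 2 of 5 pairs, so they were not treated as pairs. Control probe sets of the array were not used here, so no 3' to 5' or spike-in measure was computed. The fit was tested on simulated data.

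Named genes were the 15 largest rises and falls with no overlap of exposed and control arrays, the 10 and 10 with the largest smaller change among genes called the same way against both controls, the largest called members (up to 4) of the lists described, with up to 2 uncalled ones as values, and the 5 and 5 largest of each other contrast. Symbols starting with LOC, RGD or AABR were left out. The 63 lists held 1045 symbols, of which 902 were measured. Members, lists and the alternatives were chosen with earlier results of these data known. The alternatives were the 4-week controls, each array's position on an axis of spread within groups as a covariate, a replicate block, centring, quantile normalization, array weights, an intensity trend, other probe set rules, a filter on the dimmest 25%, at least 1.5-fold, the compared arrays alone, and leaving out each array.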

Additional observations from a re-analysis of the deposited data

Results flagged for a closer look

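Single arrays lay far from the other 4 of their group, by Dixon's ratio at 95%, in 16 of the 96 groups of 5 looked at. Chance gives about 1 in 20 for a single group. These groups share arrays and hold genes that moved together, so the count cannot be set against that rate. In 14 of the 16 flagged groups the array was exposed replicate 1, lower than the rest. Its values were 10.36 for Retnla (mean of the others 12.95), 7.94 for Rrm2 (9.43), 5.36 for Melk (7.27), 6.99 for Cdkn3 (8.35) and 6.98 for Ccnb2 (8.46). They were 5.29 for Ccna2 (6.90), 7.50 for Hyls1 (8.74), 5.26 for Ube2t (7.16), 6.18 for Ccnb1 (7.40) and 7.82 for Cdk1 (9.56). They were 3.62 for Atp6v0a4 (6.4), 7.55 for Cks2 (9.11), 6.36 for Pttg1 (8.09) and 6.68 for Cdca3 (8.24). The other 2 were control replicate 2 for Ccna2, at 3.46 against 3.97, and exposed replicate 4 on the first principal component, at -3.01 against 11.4.

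The change at 0.15 mg/m3 differed between 4 weeks and 1 week, by the interaction contrast in limma, for 7629 genes. The 5 largest positive differences were Ptges at 2.70, Stra6 at 2.59, Zfp654 at 2.5, Ccl19 at 2.44 and Aspn at 2.26. The 5 largest negative ones were Hars1 at -2.88, Rrm2 at -2.24, Gzma at -2.22, Ap2b1 at -2.16 and Kif20a at -2.10.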

How the results depend on the processing

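Against the 1-week controls 9063 genes were called, and 8683 to 9039 when each array was left out in turn, with 4382 to 4529 higher and 4301 to 4516 lower. With the 4-week controls 5729 genes were called, 1826 lower, and 1634 the same way. With the within-group axis as a covariate the counts were 5546 and 2272, and 4428 the same way. At 1.5-fold or more 5469 were called, 2772 higher and 2697 lower. The replicate block, which rests on shared numbers only, gave 9031 and no exposed array correlated best with its own number. Exposed minus control differences of arrays kept their direction: 62.2 to 70.1 on the first component, 0.061 to 0.0819 in the median and 0.0915 to 0.112 in the interquartile range. Between 0.60 and 0.15 mg/m3, centring gave 1 gene, the compared arrays alone 0, and leaving out arrays 0 to 7. Between 0.15 and 0.08 mg/m3 the counts were 1525 for the compared arrays alone, 723 with the axis and 4114 to 7252 leaving out arrays, the lowest and highest without replicates 1 and 3 at 0.08 mg/m3. The difference between times was called for 4858 genes with the axis and 7274 to 7706 leaving out arrays.

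Direction turned with the 4-week controls for Stra6 (0.73), Des (0.80), Sbspon (0.10), Ptprcap (0.72), Dact3 (0.16), Fbxl22 (0.54), Dusp2 (0.32), Cnn1 (0.58), Pparg (-0.043), Ciita (0.39), RT1-DMb (0.45), Blk (0.47), Cd79b (0.68), Lck (0.47), Zap70 (0.40), Ccl6 (-0.28), Slc39a8 (-0.46), Osgin1 (0.14), Tkt (0.26), Gclc (-0.059), Gstp1 (0.070), Mxi1 (-0.020), Kdm3a (-0.30), Phlda3 (0.29), Xrcc5 (-0.33), Ehmt2 (0.48) and Angptl4 (0.037). With the axis covariate it turned for Mt3 (0.10). A turn means a change of sign, whether or not the new difference was called. Of 69 list members, 39 kept direction and call with the 4-week controls, 10 lost the call and 20 turned. With the axis 54 kept both, 14 lost the call and 1 turned. The cause was not tested. Under the replicate block, centring, quantile normalization, array weights, the intensity trend, the mean of probe sets, the compared arrays alone and each array left out, all named changes against the 1-week controls that these settings kept in the fit kept their direction and call.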

Other observations

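Gzma, a granzyme of cytotoxic lymphocytes, averaged 7.41 in exposed lungs, 5.74 in the 1-week and 7.87 in the 4-week controls. Of 18 genes of lysosomes and lipid handling 11 were higher (61.1%) and 5 lower (27.8%) than in the 1-week controls. The shares of all genes were 33.8% and 33.7%. Against the 4-week controls 2 were higher and 2 lower, beside 29% and 13.6%, and against both 1 was higher and 1 lower. Of 27 proteasome subunits 15 were higher (55.6%) and 10 lower (37.0%) than in the 1-week controls. Against the 4-week controls 19 were higher and 1 lower, and 8 were higher against both, beside 9.14% of all genes.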
